A study of Mus musculus with 12 samples.

Results

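The effector programme of regulatory T cells (Tregs) heterozygous for a floxed Ezh2 allele was measured as the difference between their CD62Llo and their CD62Lhi fraction, across all genes. The 5 libraries used, 2 of CD62Lhi and 3 of CD62Llo cells, were chosen by their group labels from the 12 of the series. All groups were Tregs from the spleen and lymph nodes (LN) of female C57BL/6 mice, and the labels give no age for the mice. The heterozygous group (HET) carried Foxp3YFP-Cre/Foxp3WT with Ezh2fl/+, and the 6 other libraries in the model carried the same Foxp3 alleles with Ezh2fl/fl (KO). Foxp3 is X-linked and carries the Cre on 1 of the 2 alleles, so in these females a share of the Tregs makes the Cre. HET cells keep 1 unfloxed Ezh2 allele, and no group without the Cre was analysed here. The labels do not say whether cells with the Cre were sorted from the others. A further HET CD62Lhi library, replicate 3, had 589 of 23846 gene entries above 0 and is set aside in its own label, so it was left out.

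CD62L is the surface marker of the sort, high on resting lymphocytes that recirculate through lymph nodes. Tregs that have met antigen lose CD62L, gain CD44 and receptors for inflamed and barrier tissues, and raise inhibitory receptors and secreted mediators, under transcription factors that include Irf4, Batf and Blimp-1 (Prdm1). Resting Tregs are held in the lymphoid circulation by Foxo1, Klf2 and Tcf7-family factors, which sustain Ccr7 and S1pr1.

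Values are FPKM, read fragments scaled to transcript length and to the mapped total of the library, as the authors deposited them. Changes are CD62Llo minus CD62Lhi on the log2(FPKM + 1) scale with a standard error (SE), which understates changes of genes with low FPKM. A gene is called where the limma p, adjusted by Benjamini-Hochberg over all genes tested, was below 0.05. The depth implied by the deposited interval bounds, an estimate, was 14100000 and 11300000 fragments for the CD62Lhi libraries and 14900000, 16200000 and 18100000 for the CD62Llo libraries. In the 5 libraries 16.7% to 23.4% of entries with an FPKM above 1 lay above their own upper bound, so these depths are uncertain. Pearson r of log2(FPKM + 1) across genes was 0.952 to 0.957 within a HET group and 0.925 to 0.935 between the HET groups. The first principal component of the 5 libraries held 44.1% of the variance and parted the fractions. Whether a group's libraries were made from different mice is not stated in the labels, and the p-values may therefore reflect technical spread alone. In sorted bulk samples fewer cells of a type and less RNA per cell cannot be told apart.

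Ezh2 (mm10 chromosome 6, 47530274 to 47595030), the histone H3 lysine 27 methyltransferase whose floxed allele defines the genotype, had 12.7 and 12.5 FPKM in CD62Lhi and 18.2, 17.8 and 20.5 in CD62Llo (log2 0.55, SE 0.12, adjusted p = 0.00926). It was higher in every CD62Llo library, though the call was lost without CD62Lhi replicate 1 (adjusted p = 0.0519) and without CD62Lhi replicate 2 (adjusted p = 0.0575; range over the alternatives 0.0032 to 0.0575). Of 9 T cell and Treg markers 5 were called higher (Ctla4, Ikzf2, Cd4, Cd3g and Cd3e) and 4 were not called. The called share was 55.6% against 27.7% over all genes. All 9 were present in the 5 libraries, with summed levels of 1710.3 and 1806 FPKM in CD62Lhi and 2226 to 2478 in CD62Llo. The Cd3e call was lost without CD62Lhi replicate 1, CD62Lhi replicate 2 and CD62Llo replicate 2 (adjusted p = 0.124, 0.0561 and 0.0572; range 0.0035 to 0.124). Foxp3, the factor that defines Tregs, had 93.7 and 89.8 FPKM in CD62Lhi and 84.5, 83.97 and 95.6 in CD62Llo (adjusted p = 0.69). Il2ra, the CD25 gene, had 115 and 130.1 FPKM in CD62Lhi and 108, 128 and 135 in CD62Llo (adjusted p = 0.982). The fractions overlapped for both genes.

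Transcripts of other cells were unequal between the fractions. Among B cell markers the called share was 75% against 27.7% over all genes. Of 12 B cell markers 9 were called lower in CD62Llo and none higher (5 lower without CD62Lhi replicate 1), and their summed FPKM was 102 and 124 in CD62Lhi against 26.7 to 40.0 in CD62Llo. Cd79a, a chain of the B cell receptor complex, had 30.01 and 26.3 FPKM in CD62Lhi and 3.21, 2.15 and 4.62 in CD62Llo. Cd8a and Cd8b1, the chains of CD8, were lower in CD62Llo as well, and the 9 CD8 T and NK cell markers summed to 46.1 and 64.1 FPKM in CD62Lhi and 26.2 to 49.9 in CD62Llo. The 16 myeloid markers found summed to 89.9 and 112 FPKM against 143 to 229, led by Cst3 and Lyz2. Of 7 tested these 2 were called higher and 5 were not, a called share of 28.6% against 27.7% over all genes. Csf1r and Cd68 overlapped between the fractions. The Cst3 call (log2 0.31) was lost without CD62Llo replicate 1 or 2 (adjusted p = 0.0761 and 0.0642) and with median centring (adjusted p = 0.0776). It was also lost with the HET libraries alone (adjusted p = 0.059) and without CD62Lhi replicate 1 or 2 (log2 0.36 and 0.27). Lyz2, a lysozyme, had 12.9 and 8.87 FPKM in CD62Lhi and 75.2, 50.8 and 40.1 in CD62Llo. The Lyz2 call was lost when any of the 5 HET libraries, any KO CD62Lhi library or KO CD62Llo replicate 1 was left out (adjusted p = 0.0523 to 0.19; over all alternatives 0.0011 to 0.19). Red cell and platelet markers summed to 120 and 128 against 17.6 to 184 and stromal markers to at most 2.16 against 6.55 to 7.82, mostly Epcam. The plot of marker sums shows the B cell sum apart between the fractions and far below the sum of the T cell and Treg markers.

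**Figure D1:**
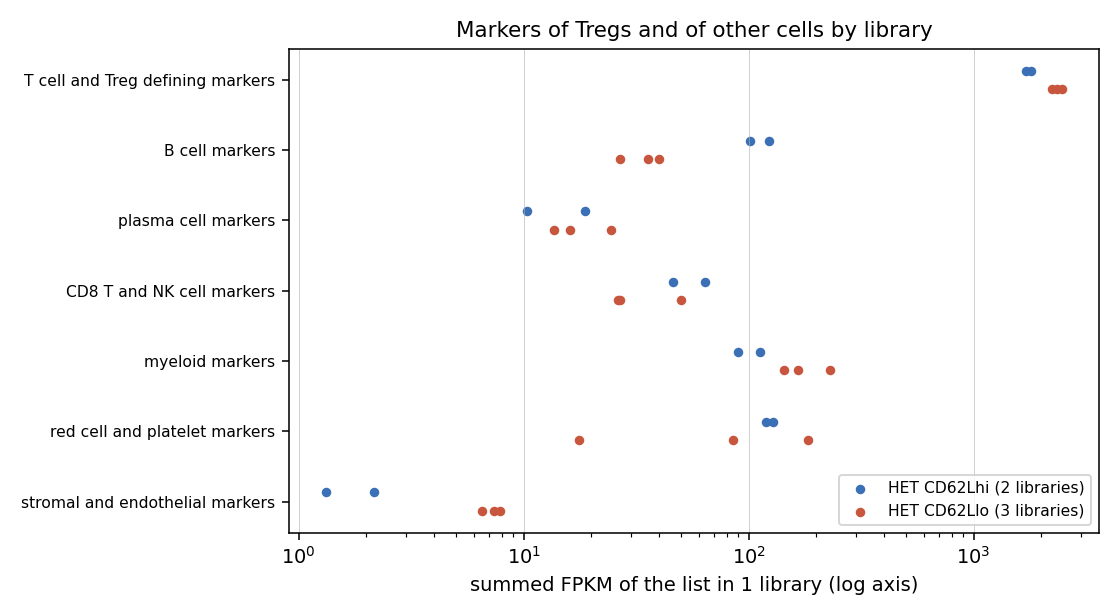
Summed FPKM of each marker list (log axis) in each HET library, CD62Lhi in blue (2 libraries) and CD62Llo in red (3 libraries). B cell markers lay at 102 and 124 FPKM in CD62Lhi and at 26.7 to 40.0 in CD62Llo, while T cell and Treg markers lay between 1710.3 and 2478 FPKM in all 5 libraries.

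The programme was broad and leaned upward. Of 11430 genes tested, 3165 (27.7%) were called, 2149 (18.8%) higher and 1016 (8.89%) lower in CD62Llo. The median size of a called change was 0.51 among the higher and 0.46 among the lower genes. A log2 change of at least 1 was called for 436 genes (3.81%) upward and 122 (1.07%) downward, and 83 against 15 genes passed 2. The large changes thus ran mostly upward. Without CD62Lhi replicate 1 the counts were 1360 higher and 560 lower, and without CD62Lhi replicate 2 they were 1363 and 650. The split between the directions depended on scaling. The median of all genes was 0.0676 as deposited and -0.0335 with quantile normalization, which gave 1431 higher and 1638 lower. Median centring gave -0.0346, with 1521 higher and 1863 lower. Changes near 0.1 in size are therefore read relative to that shift. Direction also went with level. Of 102 genes with a mean of 1000 FPKM or more 78 were called lower and 0 higher, and 67 of the 102 encode ribosomal proteins, whereas 980 rose and 320 fell of 4520 genes between 1 and 10 FPKM. The scatter of group means shows the upward tail among genes of low and middle level and the most abundant genes below the diagonal.

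**Figure D2:**
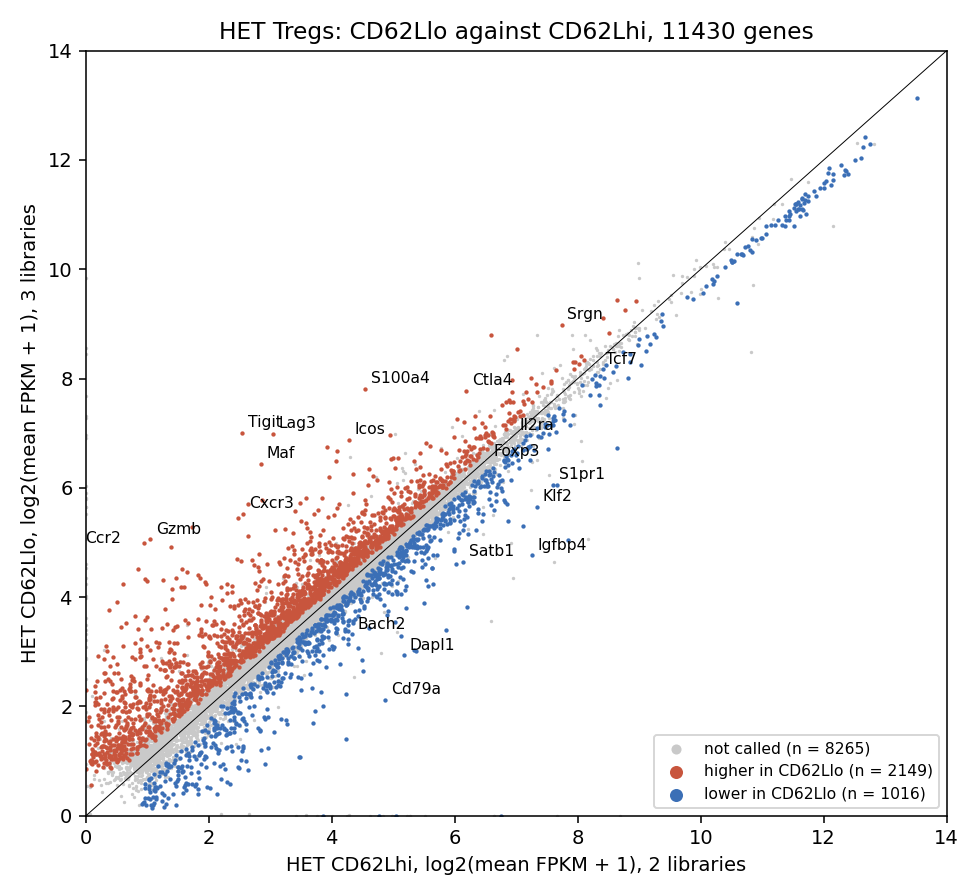
Mean expression of 11430 genes in HET CD62Lhi (x axis, 2 libraries) and HET CD62Llo Tregs (y axis, 3 libraries), as log2(mean FPKM + 1), with the diagonal. Red marks the 2149 genes called higher and blue the 1016 called lower in CD62Llo, most genes far from the diagonal lie above it, and most genes past 10 on both axes lie below it.

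The 25 most raised genes that met the naming rule rose by log2 2.82 to 4.44 (median 3.29). The largest rise was that of Tigit (mm10 chromosome 16, 43648861 to 43664184), an inhibitory receptor for nectin-like ligands, at log2 4.44 (SE 0.35). By role they included inhibitory or suppressive genes (Tigit, Lag3, Gzmb, Il10, Lilrb4), trafficking receptors (Ccr2, Cxcr3, Ccr4, Gpr15, Itgae), transcription factors (Tox2 and Maf), cytokine genes (Il1r2, Ccl20) and protease inhibitors (Serpina3g, Cst7). Among the others were S100a4, Sccpdh, Angptl2, Asb2, Rnase4, Podnl1 and Ttc39c. Asb2, the substrate adaptor of a ubiquitin ligase that targets filamins, went from 1.13 and 0.736 FPKM in CD62Lhi to 16.98, 23.3 and 17.4 in CD62Llo (log2 3.38, SE 0.16, adjusted p = 5.2e-06). Angptl2, a secreted angiopoietin-like protein, went from 1.57 and 1.66 FPKM in CD62Lhi to 26.3, 34.9 and 26.5 in CD62Llo (log2 3.52, SE 0.21, adjusted p = 8.7e-06). Sccpdh, named for its likeness to saccharopine dehydrogenase, went from 0.403 and 0.621 FPKM in CD62Lhi to 11, 23.4 and 19.5 in CD62Llo (log2 3.59, SE 0.29, adjusted p = 3.9e-05). All CD62Llo libraries lay above both CD62Lhi libraries, with mean FPKM 20.6, 18.1 and 35.1 times higher for Asb2, Angptl2 and Sccpdh. Rnase4, a secreted ribonuclease, went from 1.08 and 1.67 FPKM in CD62Lhi to 15.3, 19.97 and 21.4 in CD62Llo (log2 3.06, SE 0.20, adjusted p = 1.4e-05). Cst7, the cathepsin inhibitor cystatin F, went from 13.3 and 15.01 FPKM in CD62Lhi to 95.9, 119.6 and 103 in CD62Llo (log2 2.82, SE 0.24, adjusted p = 5.0e-05). Serpina3g, a serpin with close paralogs in the mouse whose reads could be shared, went from 5.602 and 4.87 FPKM in CD62Lhi to 50.6, 60.7 and 42.9 in CD62Llo (log2 3.06, SE 0.27, adjusted p = 5.5e-05). None of the 25 calls was lost in any alternative run. All 25 also had a positive change between the KO fractions, of log2 1.40 to 3.40 (median 2.48), and no difference between the genotypes passed the interaction test (lowest adjusted p = 0.128).

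The 25 most lowered genes that met the naming rule fell by log2 1.59 to 2.83 (median -1.99). The largest fall among them was that of Ly6d (mm10 chromosome 15, 74762056 to 74763567), a Ly6-family surface protein best known from B lineage cells, from 19.2 and 16.4 FPKM in CD62Lhi to 1.81, 1.22 and 1.93 in CD62Llo. The small RNA genes Mir1905, Scarna3a, Mir692-1, Snord1a and Snora15, which the rule leaves out and which are named after their values were seen, fell more. All but Snord1a were listed at 0 in the CD62Llo libraries. These libraries held poly(A)-selected RNA, so the values may not reflect the mature small RNAs. Markers of resting T cells and of recirculation made up 1 part of the 25 lowered genes. Among them were Klf2, Dapl1, Igfbp4, and Ly6c1 and Ly6c2, close copies that can share reads. Igfbp4, a secreted insulin-like growth factor binding protein, fell from 143 and 159 FPKM in CD62Lhi to 17.5, 26.4 and 34.5 in CD62Llo (log2 -2.54, SE 0.35, adjusted p = 6.4e-04). Dapl1, a death-associated protein-like gene of resting T cells, fell from 35.7 and 34.01 FPKM in CD62Lhi to 6.34, 6.16 and 7.38 in CD62Llo (log2 -2.24, SE 0.23, adjusted p = 1.4e-04). Cnn3, the actin-binding protein calponin 3, fell from 16.6 and 18.7 FPKM in CD62Lhi to 3.71, 4.14 and 3.25 in CD62Llo (log2 -1.99, SE 0.17, adjusted p = 5.4e-05). The CD62Llo libraries lay below both CD62Lhi libraries in all 3. Adcy6, an adenylyl cyclase, fell from 12.96 and 10.7 FPKM in CD62Lhi to 2.32, 2.04 and 2.34 in CD62Llo (log2 -1.99, SE 0.25, adjusted p = 3.6e-04). Vipr1, the receptor of vasoactive intestinal peptide, fell from 9.39 and 7.81 FPKM in CD62Lhi to 2.83, 1.801 and 1.94 in CD62Llo (log2 -1.60, SE 0.16, adjusted p = 1.2e-04). Sema4a, a semaphorin, fell from 35.8 and 32.3 FPKM in CD62Lhi to 10.2, 8.32 and 7.64 in CD62Llo (log2 -1.86, SE 0.18, adjusted p = 8.4e-05). G0s2, an inhibitor of the lipase ATGL, fell from 5.61 and 4.85 FPKM in CD62Lhi to 0.5999, 0.985 and 0.735 in CD62Llo, and Ntn4, a netrin, fell from 5.71 and 6.72 FPKM in CD62Lhi to 1.41, 1.35 and 1.12 in CD62Llo. Mean FPKM of these 5 genes was 3.91 to 6.77 times higher in CD62Lhi, and the fractions did not overlap.

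Another part of the lowered genes belongs to B cells. Cd79a, Ms4a1 and Fcer2a are 3 of the B cell markers above, and they were 8.46, 6.96 and 9.24 times higher in mean FPKM in CD62Lhi. The class II antigen presentation genes H2-Aa, H2-Ab1 and H2-Eb1, which B cells and myeloid cells express, were 5.54, 5.96 and 5.51 times higher, their chaperone Cd74 3.08 times and their activator Ciita 7.30 times. Of the 25 lowered genes 1 lost its call when either CD62Lhi library was left out. How much of the falls of Ly6d, Faim3 and the class II genes came with the B cell transcripts was not tested. All 25 lowered genes also had a negative change between the KO fractions, of log2 -1.99 to -0.66 (lowest interaction adjusted p = 0.23). The plot of the largest changes by library shows no overlap between the fractions, which the naming rule required.

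**Figure D3:**
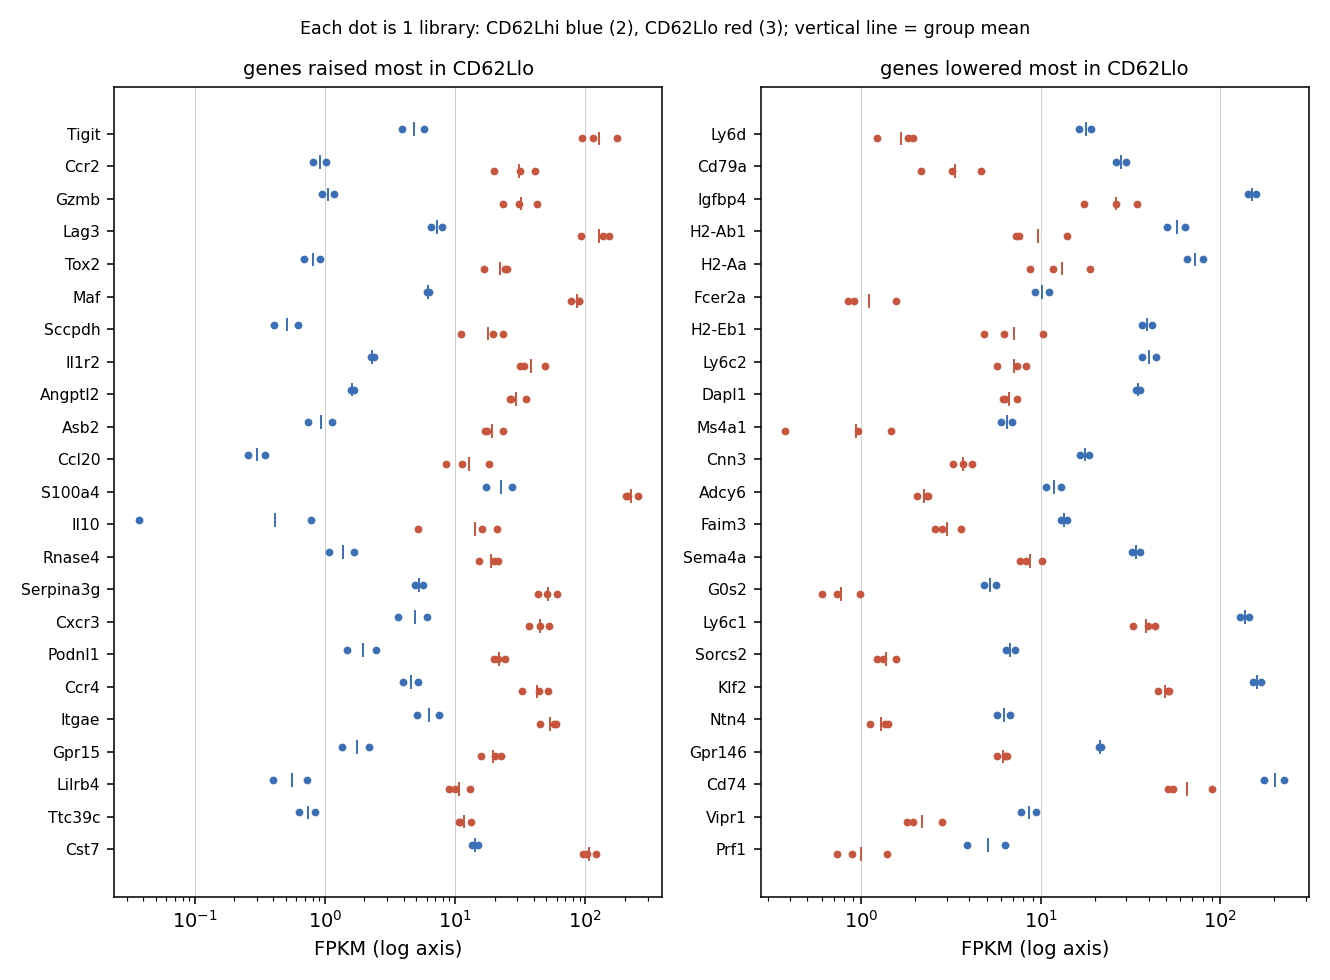
FPKM (log axis) of 23 of the 25 most raised and 23 of the 25 most lowered genes that met the naming rule in each HET library, CD62Lhi in blue (2) and CD62Llo in red (3), with group means as vertical lines. Genes run from the largest change down, Tigit at log2 4.44 to Cst7 at 2.82 on the left and Ly6d at -2.83 to Prf1 at -1.59 on the right.

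The RefSeq promoter table of GRCm38.p6, the mm10 assembly, gave start sites for 16 of the 25 raised and 16 of the 25 lowered genes, and the 250 bases before each start were searched on both strands for 9 motifs. These were AP-1 (TGANTCA), CRE (TGACGTCA), E-box (CACGTG), ETS (CCGGAAGT), KLF (CCACACCC), NFAT (ATTTTCC), TCF and LEF (ATCAAAG), and the NF-kappaB and interferon-stimulated response elements, of which the NFAT and NF-kappaB letters can overlap. Raised genes with the AP-1 letters TGANTCA, the element bound by Batf and Jun pairs, were Gzmb, Ccr4 and Gpr15, and these 3 windows are shown because Batf and Maf rose with them. Among the lowered genes counted, Igfbp4 held the KLF letters CCACACCC (on the opposite strand here), and its window is shown because Klf2 fell with it. Capitals mark the motif and, in Gpr15, also a match to the interferon-stimulated response element, which lies apart from the AP-1 letters. All are on the strand of the gene, 5′ to 3′, ending at the base before the start.
Gzmb, chr14:56262335-56262584, minus strand: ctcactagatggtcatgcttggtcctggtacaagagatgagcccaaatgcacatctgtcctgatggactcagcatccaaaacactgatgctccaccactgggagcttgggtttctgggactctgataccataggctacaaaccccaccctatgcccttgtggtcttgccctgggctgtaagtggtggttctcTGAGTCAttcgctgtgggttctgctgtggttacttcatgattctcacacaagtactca
Ccr4, chr9:114496545-114496794, minus strand: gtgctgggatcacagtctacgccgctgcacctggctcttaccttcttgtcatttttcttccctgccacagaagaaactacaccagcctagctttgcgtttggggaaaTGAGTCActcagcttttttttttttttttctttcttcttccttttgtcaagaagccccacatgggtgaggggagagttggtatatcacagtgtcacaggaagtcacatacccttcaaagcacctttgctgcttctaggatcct
Gpr15, chr16:58718873-58719122, minus strand: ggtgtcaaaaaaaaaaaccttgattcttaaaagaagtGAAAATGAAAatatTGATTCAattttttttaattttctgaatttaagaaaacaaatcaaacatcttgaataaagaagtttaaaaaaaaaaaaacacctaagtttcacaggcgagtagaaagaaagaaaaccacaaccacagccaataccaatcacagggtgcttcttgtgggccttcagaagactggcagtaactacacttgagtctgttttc
Igfbp4, chr11:99040994-99041243, plus strand: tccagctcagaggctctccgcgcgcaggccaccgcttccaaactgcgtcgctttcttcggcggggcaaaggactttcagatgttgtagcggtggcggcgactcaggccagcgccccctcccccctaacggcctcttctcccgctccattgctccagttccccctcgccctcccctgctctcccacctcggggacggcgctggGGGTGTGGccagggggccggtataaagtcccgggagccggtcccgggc

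The motif letters begin 58 bases before the start in Gzmb, 143 in Ccr4, 199 in Gpr15 and 48 in Igfbp4. Over larger sets, TGANTCA stood in 8.4% of the 441 windows of genes raised by log2 of at least 1, in 4.2% of the 10629 windows of all tested genes and in 6.7% of all 32851 RefSeq windows. The lowered genes had it in 5.3% of 113 windows at the same size of change, and Fcer2a, a lowered gene, held it in 2 of its 3 windows. CCACACCC stood in 6.3% of windows of the raised genes against 3.4% of those tested and 3.2% of all, and in 0.9% of those of the lowered genes, where Igfbp4 stands. The TCF and LEF letters ATCAAAG stood in 5.3% of windows of the lowered genes and 1.8% of those of the raised genes. Their share was 2.2% in windows tested and 3.2% in all RefSeq windows. Windows of both raised and lowered genes were poorer in CpG than those of tested genes, with a median of 9 and 6 per window against 16. Over all RefSeq windows the median was 6. Their base composition thus differs from that of tested genes, and a match describes letters, not binding. The ETS letters CCGGAAGT stood in 0.9% of windows of raised genes and in 0 of the 113 windows of lowered genes. Their share was 6.2% in windows tested and 2.9% in all RefSeq windows.

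Most transcription factors of effector T cells rose. Of 32 listed genes 28 were tested, and 21 rose and 1, Mxd1, fell, a called share of 78.6% against 27.7% over all genes. The median log2 change was 1.19 against 0.07 over all genes. Maf, a factor that activates Il10 in T cells, went from 6.04 and 6.27 FPKM in CD62Lhi to 77.99, 89.8 and 88.5 in CD62Llo (log2 3.59, SE 0.22, adjusted p = 1.0e-05). Nfil3, a basic leucine zipper factor, went from 1.75 and 2.07 FPKM in CD62Lhi to 14.9, 19.8 and 16.5 in CD62Llo (log2 2.63, SE 0.17, adjusted p = 1.2e-05). Mean FPKM was 13.9 and 8.93 times higher for Maf and Nfil3, with no overlap. Prdm1, encoding Blimp-1, went from 1.403 and 1.29 FPKM in CD62Lhi to 4.35, 6.57 and 7.32 in CD62Llo (log2 1.57, SE 0.20, adjusted p = 4.5e-04), and Irf4, its partner in effector Tregs, went from 10.4 and 12.7 FPKM in CD62Lhi to 25.6, 30.2 and 38.3 in CD62Llo (log2 1.35, SE 0.21, adjusted p = 0.00116). Batf, the AP-1 partner of Irf4, went from 46.5 and 43.9 FPKM in CD62Lhi to 114, 123 and 99.95 in CD62Llo (log2 1.29, SE 0.12, adjusted p = 6.9e-05). Id2, an inhibitor of E proteins, rose from 12.02 and 14.4 FPKM in CD62Lhi to 60.3, 52.4 and 52.97 in CD62Llo, and Ahr, the aryl hydrocarbon receptor, rose from 1.71 and 1.64 FPKM in CD62Lhi to 8.37, 9.83 and 10.2 in CD62Llo. Each of these 5 genes was higher in all CD62Llo libraries. Tbx21, the T-bet gene of Th1 cells, rose from 1.302 and 0.973 FPKM in CD62Lhi to 5.03, 4.38 and 3.28 in CD62Llo (log2 1.28, SE 0.21, adjusted p = 0.00159). Gata3, the Th2 factor, had 20.9 and 19.4 FPKM in CD62Lhi and 24.4, 19.8 and 20.9 in CD62Llo and overlapped between the fractions (log2 0.10, adjusted p = 0.523). Ikzf4 (Eos) and Hopx were not called either, with log2 changes of 0.06 and -0.03.

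Among 31 tested factors of naive and quiescent T cells 14 fell and 1 rose, with a median of -0.26. Their called share was 48.4% against 27.7% over all genes. Klf2 (mm10 chromosome 8, 72319062 to 72321654), an activator of S1pr1, fell from 168 and 154 FPKM in CD62Lhi to 51.6, 51.1 and 44.9 in CD62Llo (log2 -1.69, SE 0.11, adjusted p = 1.5e-05). Satb1, a chromatin organiser of thymocytes and resting T cells, fell from 70.8 and 67.2 FPKM in CD62Lhi to 25.9, 23.2 and 22.8 in CD62Llo (log2 -1.49, SE 0.08, adjusted p = 8.7e-06). Lef1 fell from 111 and 116 FPKM in CD62Lhi to 54.1, 49.9 and 48.9 in CD62Llo (log2 -1.15, SE 0.10, adjusted p = 4.9e-05). In each the fractions were well apart. Bach2, a repressor that restrains effector genes, fell from 18.5 and 19.6 FPKM in CD62Lhi to 8.76, 8.92 and 9.22 in CD62Llo (log2 -1.01, SE 0.08, adjusted p = 3.0e-05), and Sox4 fell from 5.75 and 6.39 FPKM in CD62Lhi to 1.896, 2.02 and 1.83 in CD62Llo (log2 -1.28, SE 0.13, adjusted p = 1.3e-04). Id3 fell from 154 and 156 FPKM in CD62Lhi to 119, 96.1 and 91.3 in CD62Llo (log2 -0.61, SE 0.12, adjusted p = 0.00386), while its relative Id2 rose. Tcf7, the TCF-1 gene and the partner of Lef1, had 344 and 313 FPKM in CD62Lhi and 344, 281 and 233 in CD62Llo, so the fractions overlapped (log2 -0.22, SE 0.17, adjusted p = 0.381). Ets1 and Btg1 were not called. Bcl6, the follicular T cell factor and the list's 1 rise, went from 7.16 and 6.92 FPKM in CD62Lhi to 16.2, 19.3 and 12.4 in CD62Llo (log2 1.06, SE 0.15, adjusted p = 7.2e-04). The plot of both factor lists shows the effector factors with large shifts from low levels and the naive factors with smaller shifts from high levels.

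**Figure D4:**
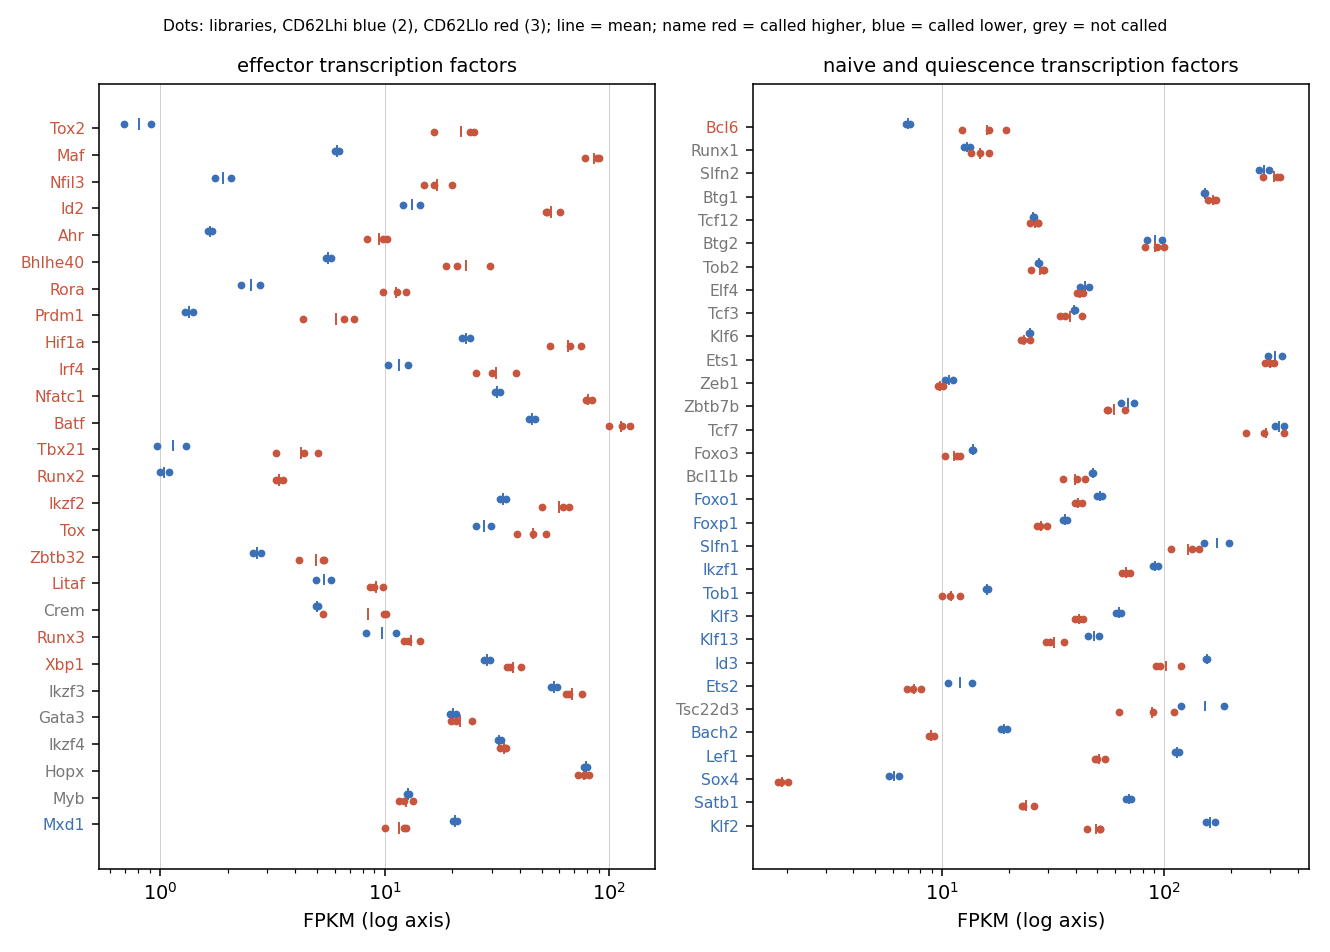
FPKM (log axis) of 27 of the 28 tested effector (left) and 31 naive and quiescence (right) transcription factors in each HET library, CD62Lhi blue (2), CD62Llo red (3), means as lines. Gene names are red where called higher (20 and 1), blue where called lower (1 and 14) and grey where not called, and each panel is ordered by log2 change.

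Most genes that mark resting T cells at the surface fell, with a called share of 69.0% against 27.7% over all genes. Of 29 tested, 20 fell and none rose, with a median of -0.61, and 17 and 18 fell without CD62Lhi replicate 1 and 2. S1pr1, the receptor for lymph node exit, fell from 195 and 189.9 FPKM in CD62Lhi to 67.4, 60.3 and 67.7 in CD62Llo (log2 -1.55, SE 0.11, adjusted p = 2.4e-05). Ccr7, the receptor for lymph node entry, fell less, from 208 and 189 FPKM in CD62Lhi to 143, 125 and 117 in CD62Llo (log2 -0.63, SE 0.14, adjusted p = 0.0104). Its call was lost without CD62Lhi replicate 1 (adjusted p = 0.0838; range over the alternatives 0.00203 to 0.0838). Txk, a Tec-family kinase, fell from 43.1 and 46.9 FPKM in CD62Lhi to 17.97, 19.7 and 19.1 in CD62Llo (log2 -1.21, SE 0.09, adjusted p = 2.1e-05), and Treml2 fell from 50.1 and 47.6 FPKM in CD62Lhi to 17.1, 15.9 and 20.8 in CD62Llo. Il7r, the IL-7 receptor chain of resting T cells, had 30.5 and 40.9 FPKM in CD62Lhi and 39.8, 38.97 and 57.4 in CD62Llo and was not called (log2 0.33, SE 0.28, adjusted p = 0.425). Il6st and Gpr83 were not called either, while Il6ra, the IL-6 binding chain, fell from 72.5 and 68.4 FPKM in CD62Lhi to 45.2, 41.9 and 45.2 in CD62Llo.

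Receptors for chemokines showed the highest median of the 33 programme lists, 2.12. Of 15 tested, 11 rose and 1, Ccr7, fell, a called share of 80% against 27.7% over all genes. Ccr2, a receptor for inflamed tissue, had the highest change at log2 3.99 (SE 0.33). Ccr8, found on Tregs of skin and tumours, went from 4.71 and 4.695 FPKM in CD62Lhi to 16.8, 28.1 and 28.4 in CD62Llo (log2 2.12, SE 0.20, adjusted p = 7.7e-05). Cxcr6, whose ligand is made by epithelial and myeloid cells, went from 1.88 and 1.41 FPKM in CD62Lhi to 13.2, 14.1 and 22.7 in CD62Llo (log2 2.70, SE 0.20, adjusted p = 2.3e-05). Ccr6, the receptor of Ccl20, went from 9.49 and 9.54 FPKM in CD62Lhi to 43.4, 42.5 and 54.04 in CD62Llo (log2 2.17, SE 0.20, adjusted p = 7.0e-05). The 3 were higher in every CD62Llo library. Ccl20 itself, the ligand, rose from 0.342 and 0.255 FPKM in CD62Lhi to 8.42, 11.2 and 18.3 in CD62Llo (log2 3.33, SE 0.33, adjusted p = 1.1e-04). Cxcr5, the receptor for B cell follicles, rose from 11.5 and 8.87 FPKM in CD62Lhi to 62.3, 53.8 and 39.01 in CD62Llo (log2 2.22, SE 0.23, adjusted p = 1.4e-04). Cxcr4 had 32.2 and 67.01 FPKM in CD62Lhi and 44.2, 85.8 and 61.6 in CD62Llo, with wide spread in both fractions and no call (adjusted p = 0.68).

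Of 31 adhesion genes 13 rose and 7 fell, a called share of 64.5% against 27.7% over all genes (median 0.19). Cd44, the hyaluronan receptor of antigen-experienced T cells, rose from 11.04 and 12.1 FPKM in CD62Lhi to 35.5, 32.6 and 31.4 in CD62Llo (log2 1.44, SE 0.13, adjusted p = 7.5e-05). Itgae, the chain of CD103 that binds E-cadherin, rose from 7.52 and 5.07 FPKM in CD62Lhi to 57.02, 44.4 and 59.3 in CD62Llo (log2 2.91, SE 0.21, adjusted p = 2.1e-05), and Itgb8, a chain of the integrin that activates latent TGF-beta, rose from 1.38 and 1.72 FPKM in CD62Lhi to 5.14, 9.43 and 6.46 in CD62Llo (log2 1.62, SE 0.19, adjusted p = 2.8e-04). The fractions did not overlap for these 3. Itgb1 rose from 35.3 and 30.2 FPKM in CD62Lhi to 90.004, 90.7 and 95.7 in CD62Llo, and Itgal, the LFA-1 chain, rose from 118 and 124 FPKM in CD62Lhi to 219, 215 and 214 in CD62Llo. Pecam1 fell from 67.1 and 72.05 FPKM in CD62Lhi to 40.3, 39.2 and 36.8 in CD62Llo (log2 -0.83, SE 0.07, adjusted p = 5.7e-05), and Itga6 fell from 55.6 and 50.4 FPKM in CD62Lhi to 38.7, 34.6 and 38.99 in CD62Llo. Itgb2, the partner of Itgal, was not called (log2 0.12, adjusted p = 0.186). Enzymes that build selectin ligands and other surface glycans had 15 of 35 tested members higher and 6 lower (median 0.25). Their called share was 60% against 27.7% over all genes. Gcnt1, which makes the core 2 branch of O-glycans, rose from 0.722 and 0.523 FPKM in CD62Lhi to 3.38, 4.05 and 4.45 in CD62Llo (log2 1.61, SE 0.12, adjusted p = 2.3e-05). Fut7, the fucosyltransferase of selectin ligands, rose from 1.17 and 0.619 FPKM in CD62Lhi to 3.52, 2.401 and 2.96 in CD62Llo (log2 1.07, SE 0.17, adjusted p = 0.00151). Chst2, a sulfotransferase, rose from 0.787 and 0.672 FPKM in CD62Lhi to 6.69, 6.72 and 5.44 in CD62Llo, whereas the sialyltransferase gene St8sia6 fell from 28.7 and 29.2 FPKM in CD62Lhi to 12.98, 11.9 and 12.05 in CD62Llo. The 3 rises started near 1 FPKM or below in CD62Lhi.

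Suppressive mediators and inhibitory receptors had the largest share of called members, 83.9% against 27.7% over all genes. Of 31 tested, 24 were higher and 2 lower, with a median of 0.95. Of the 2 falls 1 was left without CD62Lhi replicate 1, CD62Llo replicate 2 or CD62Llo replicate 3. Lag3, an MHC class II binding inhibitory receptor, rose from 6.44 and 7.95 FPKM in CD62Lhi to 92.03, 136 and 151 in CD62Llo (log2 3.93, SE 0.27, adjusted p = 1.6e-05). Icos, a CD28-family costimulator, rose from 16.8 and 19.96 FPKM in CD62Lhi to 92.5, 124 and 131 in CD62Llo (log2 2.58, SE 0.19, adjusted p = 2.1e-05). Klrg1, a cadherin-binding lectin of terminally differentiated cells, rose from 0.316 and 0.131 FPKM in CD62Lhi to 4.89, 3.01 and 10.9 in CD62Llo (log2 2.42, SE 0.39, adjusted p = 0.00163). CD62Llo replicate 3 was the highest library for Klrg1 and replicate 2 the lowest, and both exceeded CD62Lhi. Il10 rose from 0.0370 and 0.784 FPKM in CD62Lhi to 5.15, 20.8 and 16.1 in CD62Llo (log2 3.28, SE 0.64, adjusted p = 0.00444), with a wide SE and with CD62Llo replicate 1 the lowest of its group. Fgl2, a secreted fibrinogen-like suppressor, rose from 0.846 and 0.741 FPKM in CD62Lhi to 8.25, 9.35 and 11.3 in CD62Llo (log2 2.56, SE 0.17, adjusted p = 1.6e-05). Lgals1, encoding galectin-1, rose from 108 and 109 FPKM in CD62Lhi to 197, 171 and 180.1 in CD62Llo (log2 0.75, SE 0.16, adjusted p = 0.0065). Tgfb1 and Lrrc32 (GARP), the latent TGF-beta pair of Tregs, were not called, at log2 -0.05 (adjusted p = 0.679) and 0.04 (adjusted p = 0.787).

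Cytotoxic genes split. Gzmb, granzyme B, rose from 0.941 and 1.17 FPKM in CD62Lhi to 23.2, 31.1 and 42.3 in CD62Llo (log2 3.98, SE 0.23, adjusted p = 8.7e-06), and Srgn, the serglycin of secretory granules, rose from 205 and 219 FPKM in CD62Lhi to 475, 482 and 559.6 in CD62Llo (log2 1.25, SE 0.11, adjusted p = 6.6e-05). Prf1, perforin, fell from 6.32 and 3.87 FPKM in CD62Lhi to 1.39, 0.888 and 0.727 in CD62Llo (log2 -1.59, SE 0.19, adjusted p = 3.4e-04), and Ctsw, cathepsin W, fell from 114 and 108 FPKM in CD62Lhi to 48.8, 54.7 and 54.2 in CD62Llo (log2 -1.07, SE 0.10, adjusted p = 9.3e-05). Klrd1, the CD94 chain of NK and CD8 cells, fell from 2.59 and 2.46 FPKM in CD62Lhi to 0.637, 0.158 and 0.142 in CD62Llo. In the whole list of 19 tested genes 9 rose and 4 fell (median 0.64, 68.4% called against 27.7% over all genes). The transcripts of Gzmb and Prf1 thus moved in opposite directions. Beside the falls of Prf1, Ctsw and Klrd1 stands that of Cd8b1, from 32.96 and 29.9 FPKM in CD62Lhi to 11.9, 11.6 and 8.66 in CD62Llo, and of Cd8a, from 9.29 and 7.79 FPKM in CD62Lhi to 3.08, 1.99 and 2.05 in CD62Llo, while Klrb1c, an NK receptor, rose from 0.395 and 0.315 FPKM in CD62Lhi to 1.53, 3.35 and 3.97 in CD62Llo. How much of the falls came with CD8 and NK cell transcripts was not tested.

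Of 31 listed cytokine genes of helper lineages, 16 passed the low-value filter and 10 of those rose and 1 fell (median 1.77; 0 fell without CD62Lhi replicate 1). The called share was 68.8% against 27.7% over all genes. A gene that passed only through its CD62Llo libraries had to differ, so count and share are descriptions. Ifng, of Th1 cells, rose from 0.488 and 0.304 FPKM in CD62Lhi to 4.13, 3.59 and 3.65 in CD62Llo. Il4, of Th2 cells, rose from 0.204 and 0 FPKM in CD62Lhi to 4.03, 5.54 and 2.95 in CD62Llo, and Il21, of follicular cells, rose from 0.0852 and 0.159 FPKM in CD62Lhi to 4.99, 4.22 and 1.17 in CD62Llo. All 3 were below 1 FPKM in both CD62Lhi libraries, and none exceeded 5.54 FPKM in any library. Csf1, the macrophage growth factor, rose from 1.75 and 1.84 FPKM in CD62Lhi to 9.63, 11.7 and 8.98 in CD62Llo (log2 1.98, SE 0.14, adjusted p = 1.9e-05). Penk, the enkephalin precursor, rose from 6.005 and 4.41 FPKM in CD62Lhi to 36.1, 26.4 and 39.2 in CD62Llo (log2 2.48, SE 0.45, adjusted p = 0.00291). Cxcl10, a Cxcr3 ligand, rose from 0.819 and 1.36 FPKM in CD62Lhi to 7.79, 11.8 and 9.29 in CD62Llo (log2 2.34, SE 0.20, adjusted p = 5.1e-05). These 3 reached higher levels in CD62Llo, between 7.79 and 39.2 FPKM.

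Cytokine receptors moved in both directions, with 11 of 31 higher, 5 lower and a median of 0.25, and the counts were the same when either CD62Lhi library was left out. The called share was 51.6% against 27.7% over all genes. Several receptors of the IL-1 family rose. Il1r2, the decoy receptor of IL-1, rose from 2.25 and 2.36 FPKM in CD62Lhi to 31.2, 48.7 and 33.95 in CD62Llo (log2 3.53, SE 0.24, adjusted p = 1.6e-05), and Il1r1, the signalling receptor, rose from 0.135 and 0.0672 FPKM in CD62Lhi to 1.81, 2.5 and 4.88 in CD62Llo (log2 1.81, SE 0.25, adjusted p = 6.4e-04). Il18r1 rose from 16.3 and 16.2 FPKM in CD62Lhi to 49.96, 46.7 and 56.3 in CD62Llo and its partner Il18rap from 0.984 and 0.848 FPKM in CD62Lhi to 5.49, 6.36 and 5.17 in CD62Llo. Il1rl1, the ST2 gene of tissue Tregs, had 2.08 and 1.01 FPKM in CD62Lhi and 3.35, 1.64 and 3.47 in CD62Llo and overlapped (log2 0.58, adjusted p = 0.23). Il12rb1, shared by the IL-12 and IL-23 receptors, rose from 7.96 and 7.81 FPKM in CD62Lhi to 21.1, 24.1 and 24.6 in CD62Llo (log2 1.45, SE 0.12, adjusted p = 4.4e-05). Receptors for IL-4, IL-17, interferon gamma and IL-6 fell. Their falls were moderate in size. Il4ra fell from 71.2 and 68.8 FPKM in CD62Lhi to 41.9, 40.3 and 43.9 in CD62Llo (log2 -0.72, SE 0.06, adjusted p = 4.1e-05). Ifngr2 fell from 31.6 and 29.1 FPKM in CD62Lhi to 16.6, 15.9 and 14.2 in CD62Llo (log2 -0.92, SE 0.08, adjusted p = 5.2e-05). Il17ra fell from 71.998 and 72.97 FPKM in CD62Lhi to 45.1, 41.6 and 42.1 in CD62Llo (log2 -0.74, SE 0.06, adjusted p = 5.1e-05). The chains of the IL-2 receptor, Il2ra, Il2rb and Il2rg, were not called, with log2 changes of 0.00, 0.07 and 0.02. Signalling genes of the STAT, JAK and SOCS families had 7 higher and 3 lower of 27 (median 0.01). Their called share was 37.0% against 27.7% over all genes. Jak2 rose from 25.9 and 27.03 FPKM in CD62Lhi to 40.3, 40.9 and 43.2 in CD62Llo (log2 0.63, SE 0.08, adjusted p = 3.6e-04), and Stat4, which acts below the IL-12 receptor, rose from 32.1 and 31.8 FPKM in CD62Lhi to 44.1, 52.6 and 45.3 in CD62Llo (log2 0.55, SE 0.11, adjusted p = 0.00506). The 3 falls of this list, Jak1, Stat5a and Socs1, were all lost without CD62Lhi replicate 1 (adjusted p = 0.0778, 0.113 and 0.116), where the counts were 5 and 0. The Stat5a call was also lost without CD62Lhi replicate 2 and CD62Llo replicates 2 and 3 (adjusted p = 0.136, 0.071 and 0.0732). Over all alternatives the adjusted p ran from 3.6e-04 to 0.0778 for Jak1, 0.00405 to 0.136 for Stat5a and 0.00532 to 0.116 for Socs1.

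In the TNF receptor family 6 of 19 tested members rose and 5 fell (median 0.14), and 4 rose and 1 fell without CD62Lhi replicate 1 (4 and 3 without replicate 2, and 2 fell without CD62Llo replicate 2). Tnfrsf8, encoding CD30, rose from 0.297 and 0.408 FPKM in CD62Lhi to 5.87, 6.89 and 6.82 in CD62Llo (log2 2.47, SE 0.10, adjusted p = 3.4e-06). Tnfrsf1b, TNF receptor 2 of Tregs, rose from 28.9 and 31.6 FPKM in CD62Lhi to 73.2, 104 and 97.2 in CD62Llo (log2 1.55, SE 0.13, adjusted p = 3.9e-05). Tnfrsf9 (4-1BB) rose from 28.9 and 30.2 FPKM in CD62Lhi to 58.02, 64.4 and 79.9 in CD62Llo (log2 1.15, SE 0.16, adjusted p = 8.0e-04) and Tnfrsf4 (OX40) rose from 135 and 148 FPKM in CD62Lhi to 189, 229.9 and 229 in CD62Llo (log2 0.60, SE 0.09, adjusted p = 0.00128). Their CD62Llo libraries were all above those of CD62Lhi. Tnfrsf18 (GITR) and Cd27 were not called, at log2 0.18 and 0.13. The called share was 57.9% in the TNF receptor family and 66.7% among the TNF ligands, against 27.7% over all genes. Relt fell from 22.2 and 21.5 FPKM in CD62Lhi to 14.7, 11.7 and 12.1 in CD62Llo (log2 -0.73, SE 0.12, adjusted p = 0.002). Tnfrsf13c and Cd40, receptors best known from B cells, also fell, beside the B cell markers given above, and each call was lost without CD62Lhi replicate 1 (adjusted p = 0.108 and 0.14). Tnfrsf13c was also lost without CD62Lhi replicate 2 (adjusted p = 0.0974) and CD62Llo replicates 1 and 2 (adjusted p = 0.0563 and 0.0558; range 0.0024 to 0.108), and Cd40 without CD62Llo replicate 2 (adjusted p = 0.0526; range 0.00278 to 0.14). Among TNF ligands 8 of 12 rose and none fell (median 0.72), with 4 and 6 higher without CD62Lhi replicate 1 and 2. Tnfsf14 (LIGHT) rose from 2.64 and 2.55 FPKM in CD62Lhi to 21.9, 17.5 and 18.996 in CD62Llo (log2 2.50, SE 0.14, adjusted p = 8.7e-06). Tnfsf11 (RANKL) rose from 5.72 and 5.25 FPKM in CD62Lhi to 27.1, 23.1 and 23.3 in CD62Llo (log2 1.97, SE 0.15, adjusted p = 3.0e-05). Ltb, the most abundant ligand, was not called, with 786 and 638 FPKM in CD62Lhi and 852, 629.9 and 615 in CD62Llo (adjusted p = 0.872).

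Antigen receptor signalling genes shifted in both directions, with 19 of 49 higher and 9 lower (median 0.13), and 16 and 13 with median centring. The called share was 57.1% against 27.7% over all genes. The rises included adaptors and phosphatases, and also the costimulator Cd28 (log2 0.75, SE 0.09, adjusted p = 3.4e-04). Dgka, a diacylglycerol kinase, fell (log2 -0.54, SE 0.08, adjusted p = 8.0e-04). Ptpn22, a phosphatase acting on Lck, rose from 48.1 and 46.5 FPKM in CD62Lhi to 97.4, 112 and 115 in CD62Llo (log2 1.17, SE 0.13, adjusted p = 2.0e-04). Ubash3b, the phosphatase Sts-1, rose from 15.2 and 15.7 FPKM in CD62Lhi to 25.6, 31.9 and 32.5 in CD62Llo (log2 0.90, SE 0.10, adjusted p = 2.0e-04). Sla, an adaptor that limits receptor levels, rose from 68.1 and 70.9 FPKM in CD62Lhi to 126, 147 and 166 in CD62Llo (log2 1.05, SE 0.11, adjusted p = 1.8e-04). Sh2d1a (SAP), an adaptor of the SLAM receptors, rose from 59.6 and 69.7 FPKM in CD62Lhi to 141, 155 and 158 in CD62Llo. Rasgrp2, a Rap1 activator, fell from 119 and 111 FPKM in CD62Lhi to 45.4, 37.7 and 40.3 in CD62Llo (log2 -1.47, SE 0.14, adjusted p = 8.9e-05), and Grap2, the adaptor Gads, fell from 93.1 and 94.8 FPKM in CD62Lhi to 66.1, 58.8 and 54.99 in CD62Llo (log2 -0.64, SE 0.08, adjusted p = 4.3e-04). Lck, Lat and Cd247 were not called (log2 0.13, -0.08 and -0.16). The response genes of the receptor were higher but with weaker support. Their called share was 75% against 27.7% over all genes. Of 8 Nr4a and Egr genes 6 rose (median 0.54), and 2 without CD62Lhi replicate 1. Egr2, a restraint on T cell activation, rose from 12.2 and 15.4 FPKM in CD62Lhi to 28.1, 32.3 and 30.2 in CD62Llo (log2 1.08, SE 0.15, adjusted p = 6.3e-04), and Nr4a2 rose from 0.536 and 0.594 FPKM in CD62Lhi to 1.39, 2.81 and 2.0996 in CD62Llo. Nr4a1, encoding Nur77, went from 43.3 and 50.6 FPKM in CD62Lhi to 56.6, 63.1 and 71.7 in CD62Llo, and its call was lost without CD62Lhi replicate 1 (adjusted p = 0.217) and CD62Llo replicates 2 and 3 (adjusted p = 0.0667 and 0.0869; range 0.0193 to 0.217). Nfatc1 rose from 30.9 and 32.5 FPKM in CD62Lhi to 79.1, 84.01 and 79.3 in CD62Llo (log2 1.32, SE 0.12, adjusted p = 7.8e-05).

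Of 11 AP-1 genes 6 rose and 1 fell (median 0.51), a called share of 63.6% against 27.7% over all genes. The rises numbered 3 without CD62Llo replicate 2. The fall was lost without either CD62Lhi library and without CD62Llo replicates 2 and 3. Jdp2 and Mafg rose beside Batf, Mafg from 3.73 and 3.05 FPKM in CD62Lhi to 9.66, 8.74 and 8.06 in CD62Llo (log2 1.16, SE 0.14, adjusted p = 3.4e-04). Fos and Jun were not called, with 2.13 and 2.85 FPKM in CD62Lhi and 2.98, 4.75 and 5.76 in CD62Llo for Fos (adjusted p = 0.097). Among 29 NF-kappaB genes 10 rose and 4 fell (median 0.08), and 6 rose and 1 fell when either CD62Lhi library was left out. Malt1, the paracaspase, rose from 19.3 and 18.2 FPKM in CD62Lhi to 35.7, 50.4 and 39.8 in CD62Llo (log2 1.11, SE 0.12, adjusted p = 1.8e-04). Nfkb2 and Relb, the pair of the alternative pathway, rose from 34.2 and 31.8 FPKM in CD62Lhi to 46.3, 47.998 and 48.3 in CD62Llo for Nfkb2 and from 26.5 and 22.7 FPKM in CD62Lhi to 41.6, 41.1 and 36.3 in CD62Llo for Relb. The share of the NF-kappaB list called was 48.3% against 27.7% over all genes, and with median centring it had 5 higher and 5 lower. Of 15 dual-specificity phosphatases 5 rose and 1 fell, a called share of 40% against 27.7% over all genes. The median was 0.20, and 0.23 and 0.18 without CD62Lhi replicate 1 and 2. With quantile normalization 3 rose and 2 fell, and 0 fell without CD62Llo replicate 3. Dusp1 rose from 10.2 and 9.91 FPKM in CD62Lhi to 21.4, 25.1 and 28.7 in CD62Llo (log2 1.23, SE 0.15, adjusted p = 3.2e-04).

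Genes of the Bcl2 family, which set the threshold for cell death, rose more often than they fell, with 9 of 19 higher, 1 lower. The median was 0.36 and the called share 52.6% against 27.7% over all genes, and 2 were lower without CD62Llo replicate 3. Bcl2 fell from 68.6 and 70.3 FPKM in CD62Lhi to 35.4, 36.9 and 37.3 in CD62Llo (log2 -0.91, SE 0.09, adjusted p = 1.2e-04). Bcl2l1, encoding Bcl-xL, rose from 15.3 and 15.3 FPKM in CD62Lhi to 21.5, 19.6 and 23.2 in CD62Llo (log2 0.46, SE 0.10, adjusted p = 0.00624). The A1 genes Bcl2a1a, Bcl2a1b and Bcl2a1d, near-identical copies that can share reads, rose by log2 1.60, 1.55 and 1.54. Mcl1 and Bax were not called, and Bcl2l11 (Bim), a killer protein held by Bcl2, had 15.6 and 19.4 FPKM in CD62Lhi and 9.54, 12.8 and 14.8 in CD62Llo (adjusted p = 0.0823).

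Receptors for lipids and purines and orphan receptors had 13 of 34 higher and 7 lower (median 0.25). Their called share was 58.8% against 27.7% over all genes. Gpr15, a receptor for large-intestine homing, rose from 2.18 and 1.36 FPKM in CD62Lhi to 20.2, 15.7 and 22.4 in CD62Llo (log2 2.89, SE 0.20, adjusted p = 1.6e-05). Gpr55, a lysophospholipid receptor, rose from 1.35 and 1.06 FPKM in CD62Lhi to 7.88, 7.05 and 9.06 in CD62Llo (log2 2.02, SE 0.17, adjusted p = 4.9e-05). The sphingosine 1-phosphate receptors were divided. S1pr1 and S1pr4 fell, S1pr4 from 93.8 and 92.3 FPKM in CD62Lhi to 62.4, 51.3 and 48.9 in CD62Llo (log2 -0.78, SE 0.10, adjusted p = 4.6e-04), and S1pr2 rose from 3.699 and 4.22 FPKM in CD62Lhi to 9.997, 10.1 and 7.99 in CD62Llo (log2 1.06, SE 0.12, adjusted p = 1.9e-04). Prostaglandin E receptors were divided as well, Ptger2 rising from 6.68 and 7.04 FPKM in CD62Lhi to 19.4, 18.1 and 17.9 in CD62Llo and Ptger3 falling from 1.21 and 1.18 FPKM in CD62Lhi to 0.127, 0.347 and 0.328 in CD62Llo. Of 10 RGS genes, which shorten G protein signals, 3 rose and 1 fell, a called share of 40% against 27.7% over all genes. The median was -0.01, and -0.03 and 0.03 without CD62Lhi replicate 1 and 2. With quantile normalization 3 rose and 3 fell. Rgs16 rose from 5.89 and 6.22 FPKM in CD62Lhi to 25.6, 36.4 and 18.4 in CD62Llo (log2 1.93, SE 0.32, adjusted p = 0.00177), while Rgs1 and Rgs10, the abundant members, were not called.

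The S100, annexin and galectin list, which also holds Ahnak, had 10 of 25 higher and 3 lower (median 0.30). Its called share was 52% against 27.7% over all genes. S100a4 rose from 27.2 and 17.2 FPKM in CD62Lhi to 205, 212 and 251 in CD62Llo (log2 3.30, SE 0.23, adjusted p = 1.9e-05). S100a6 rose from 17.3 and 14.8 FPKM in CD62Lhi to 91.9, 106 and 106 in CD62Llo (log2 2.59, SE 0.28, adjusted p = 1.9e-04). S100a11 rose from 94.2 and 96.4 FPKM in CD62Lhi to 442, 489 and 397 in CD62Llo (log2 2.20, SE 0.11, adjusted p = 5.8e-06). Mean FPKM was 10.02, 6.32 and 4.64 times higher for S100a4, S100a6 and S100a11. Ahnak, a giant scaffold that binds S100a10, rose from 11.8 and 10.1 FPKM in CD62Lhi to 36.2, 37.6 and 46.1 in CD62Llo. Emp3 fell from 228 and 237 FPKM in CD62Lhi to 146, 143 and 136 in CD62Llo (log2 -0.71, SE 0.07, adjusted p = 1.4e-04), and Vim, vimentin, was not called (log2 -0.09). Actin and motility genes had 4 of 44 higher and 11 lower (median -0.02). The called share was 34.1% against 27.7% over all genes (18.8% higher and 8.89% lower). The falls numbered 6 and 5 without CD62Lhi replicate 1 and 2, and 16 with median centring. Myo1f, a class I myosin, rose from 3.09 and 1.97 FPKM in CD62Lhi to 20.5, 20.6 and 19.4 in CD62Llo (log2 2.60, SE 0.20, adjusted p = 3.1e-05). Msn and Ezr, the linkers between membrane and actin, fell from 331 and 353 FPKM in CD62Lhi to 253, 258 and 256 in CD62Llo for Msn (log2 -0.42, SE 0.06, adjusted p = 9.8e-04) and from 146 and 146 FPKM in CD62Lhi to 111, 108 and 99.5 in CD62Llo for Ezr (log2 -0.46, SE 0.08, adjusted p = 0.00232). Actb and Cfl1 were not called (log2 -0.26 and -0.18).

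Of 25 glycolytic genes 12 rose and 2 fell, by small amounts (median 0.13, 56% called against 27.7% over all genes). Both the rises and the falls were fewer without either CD62Lhi library, with medians of 0.20 and 0.17 without replicate 1 and 2. The rises numbered 9 with quantile normalization and 11 with median centring, and the falls 3 and 5. Tpi1 rose from 33.3 and 31.3 FPKM in CD62Lhi to 61.4, 67.8 and 62.1 in CD62Llo (log2 0.96, SE 0.11, adjusted p = 2.3e-04), Pgam1 rose from 37.8 and 37.2 FPKM in CD62Lhi to 57.5, 62.6 and 58.9 in CD62Llo, and Gapdh rose from 434 and 439 FPKM in CD62Lhi to 614, 639 and 563 in CD62Llo (log2 0.47, SE 0.08, adjusted p = 0.00185). Ldha, Gpi1 and Slc2a1, the GLUT1 transporter, were not called (log2 -0.11, 0.06 and -0.24). Of 32 genes of the TCA cycle and fatty acid oxidation 3 rose and 1 fell, a share of 12.5% called against 27.7% over all genes. Without CD62Lhi replicate 1 the counts were 1 and 0, the fall was lost without CD62Lhi replicate 2 or CD62Llo replicate 2, and 2 fell without CD62Llo replicate 1. Nutrient transporters had 10 of 26 higher and 3 lower (5 and 0 without CD62Lhi replicate 1, 4 and 1 without replicate 2, and 1 lower without CD62Llo replicate 2), among them Slc38a1, a glutamine carrier, from 19.03 and 18.03 FPKM in CD62Lhi to 25.2, 24.4 and 25.002 in CD62Llo (log2 0.41, SE 0.06, adjusted p = 0.00101). The called share of the nutrient transporters was 50% against 27.7% over all genes. In the secretory and lysosomal list 11 of 34 rose and 1 fell, a called share of 35.3% against 27.7% over all genes. The median was 0.18, and 0.15 and 0.19 without CD62Lhi replicate 1 and 2. With median centring 7 rose and 1 fell. Ctsb, cathepsin B, rose from 41.7 and 36.6 FPKM in CD62Lhi to 92.8, 90.03 and 84.2 in CD62Llo (log2 1.17, SE 0.17, adjusted p = 0.00102), and Sec11c, a signal peptidase chain, rose from 77.8 and 78.9 FPKM in CD62Lhi to 135, 134 and 139 in CD62Llo (log2 0.79, SE 0.08, adjusted p = 1.1e-04). Chaperones had 8 of 30 higher and none lower (5 and 4 higher without CD62Lhi replicate 1 and 2), a called share of 26.7% against 27.7% over all genes (18.8% higher). Hspa5, the BiP chaperone, rose from 115 and 111 FPKM in CD62Lhi to 176, 187 and 206 in CD62Llo (log2 0.74, SE 0.07, adjusted p = 8.9e-05), and Calr, calreticulin, rose from 186 and 191 FPKM in CD62Lhi to 239.6, 253 and 246 in CD62Llo (log2 0.38, SE 0.05, adjusted p = 6.8e-04). Hspa8 and Cct2 of the cytosol were not called.

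Cell division genes were close to the background. Of 36 replication and mitosis genes 6 rose and 3 fell, 9 in all or a share near the 27.7% of all genes, with 3 and 2 without CD62Lhi replicate 1. Mcm6, of the replicative helicase, rose from 34.6 and 36.2 FPKM in CD62Lhi to 56.6, 67.7 and 63.4 in CD62Llo (log2 0.80, SE 0.09, adjusted p = 2.8e-04). Mki67, encoding Ki-67, had 6.68 and 4.68 FPKM in CD62Lhi and 11.2, 8.904 and 7.67 in CD62Llo (log2 0.62, SE 0.19, adjusted p = 0.04), and its call was lost without CD62Lhi replicate 2 (adjusted p = 0.273) and without CD62Llo replicates 1 and 2 (adjusted p = 0.0989 and 0.0772; range 0.00517 to 0.273). Leaving out KO CD62Lhi replicate 2, KO CD62Lhi replicate 3 or KO CD62Llo replicate 3 also ended it (adjusted p = 0.0579, 0.0511 and 0.0542). The CDK inhibitors moved apart. Cdkn2c, encoding p18, rose from 2.89 and 2.82 FPKM in CD62Lhi to 11.8, 11.5 and 8.95 in CD62Llo (log2 1.60, SE 0.14, adjusted p = 5.7e-05), and Cdkn2d, encoding p19, fell from 65.9 and 58.6 FPKM in CD62Lhi to 31.9, 26.4 and 24.3 in CD62Llo (log2 -1.16, SE 0.13, adjusted p = 2.1e-04). Myc fell from 71.1 and 70.9 FPKM in CD62Lhi to 46.6, 43.8 and 52.3 in CD62Llo (log2 -0.57, SE 0.09, adjusted p = 0.00102), and Pcna was not called (log2 0.04).

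Several housekeeping lists had few calls or depended on scaling. Proteasome genes had 6 of 36 higher and 2 lower, a called share of 22.2% against 27.7% over all genes. They had 0 called without CD62Lhi replicate 1, CD62Lhi replicate 2 or CD62Llo replicate 3 and 1 without CD62Llo replicate 2, and with median centring 0 rose and 5 fell. Translation factors had 0 of 40 higher and 7 lower, a called share of 17.5%, and 15 lower with median centring. Without CD62Llo replicate 3, 4 were lower, and 1 was higher without CD62Llo replicate 1 or 2. The median was -0.01, and -0.01 and -0.02 without CD62Lhi replicate 1 and 2. Eef1b2, an exchange factor of elongation, fell from 514 and 497 FPKM in CD62Lhi to 393, 393 and 383 in CD62Llo (log2 -0.38, SE 0.06, adjusted p = 0.00131). Of 8 GIMAP GTPases of lymphocyte survival 1, Gimap7, was called higher, a called share of 12.5%. Its call was lost without either CD62Lhi library, CD62Llo replicates 1 and 2, any KO CD62Lhi library and KO CD62Llo replicate 1 (adjusted p = 0.051 to 0.223; over all alternatives 0.0116 to 0.223), and with median centring 0 were higher and 1 lower. Antigen presentation genes had 5 of 19 lower and none higher, a called share of 26.3% against 27.7% over all genes and 8.89% lower (2 lower without CD62Lhi replicate 1, CD62Lhi replicate 2 or CD62Llo replicate 2 and 3 without CD62Llo replicate 3), and 3 higher with quantile normalization. H2-T24, a nonclassical class I gene with close relatives, fell from 50.9 and 55.7 FPKM in CD62Lhi to 30.7, 34.3 and 30.8 in CD62Llo (log2 -0.72, SE 0.08, adjusted p = 1.4e-04), and B2m and H2-K1 were not called. The plot of all 33 lists sets their shares beside the background.

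**Figure D5:**
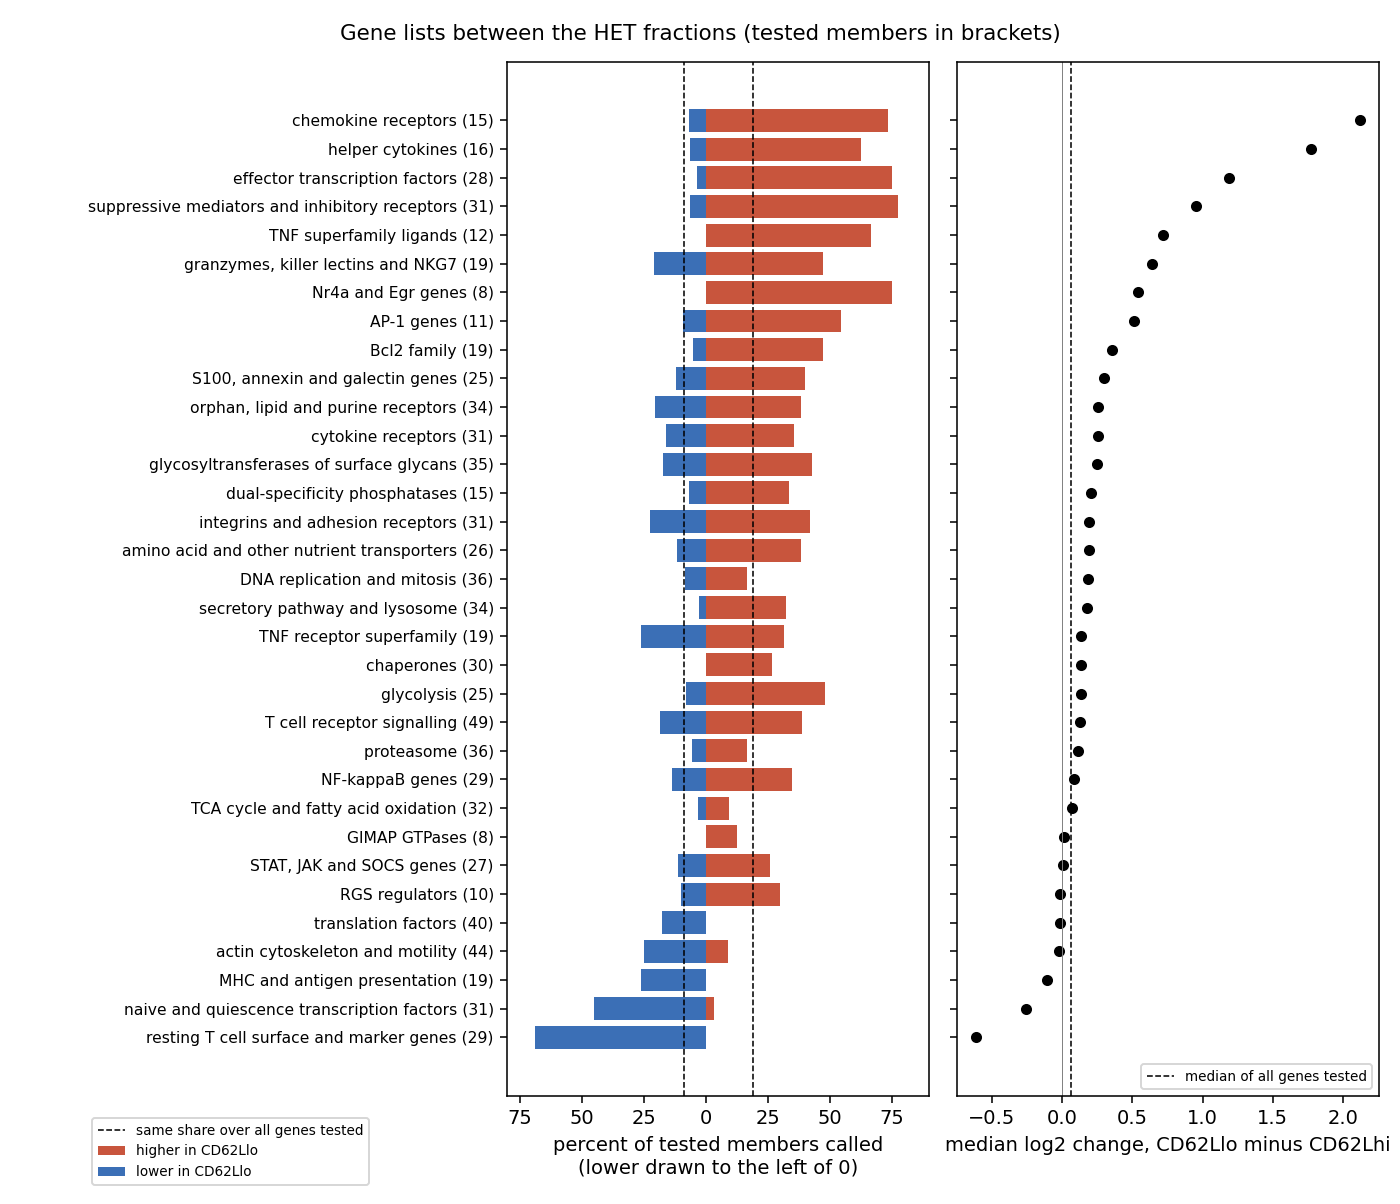
For 33 gene lists (tested members in brackets), the percent of tested members called higher (red, right) or lower (blue, left) in HET CD62Llo, and the median log2 change. Dashed lines give the same over all 11430 genes, 18.8% higher, 8.89% lower and a median of 0.0676, and lists run from chemokine receptors at 2.12 to resting surface genes at -0.61.

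Together the 33 lists held 947 genes, of which 821 were tested, 268 rose and 120 fell. In 26 lists the share called was above that of all genes. The lists were chosen for T cell biology with earlier results known, so this is a description. Between the HET and the KO fraction change 1 of 11430 genes (0.00875%) passed the test of the difference, a small RNA gene, Mir1905, described in the closing section. A p that misses the threshold does not show that the programme was the same in both genotypes.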

How the data were processed

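RNA of sorted Tregs was sequenced as single-end reads of 50 bases after poly(A) selection, per the labels' protocols. Per the submitters' processing notes, the authors used CASAVA 1.8.2, FastQC, TopHat and Cufflinks 2.1.1 with mm10, and they deposited 1 table of FPKM with lower and upper bounds for each library. No counts were used, depth is known only as the estimate given, and strand is not stated, so reads of overlapping antisense genes cannot be told apart.

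Entries that share a symbol were summed (250 of 23352 symbols), and 1 symbol with a failed estimate was left out. The 11430 genes that reached 1 FPKM in 2 or more of the 11 libraries were tested with limma 3.58.1 in R 4.3.3 on log2(FPKM + 1), as 4 group means with a trended empirical Bayes variance, so that HET and KO libraries share 1 estimate of the spread. P-values were adjusted by Benjamini-Hochberg over all genes tested, at 0.05. The fit was also run on simulated data with 200 changed genes in 3 draws, and the outcome is not given here. The draws had independent noise in each library and far fewer changed genes than the 3165 called. No conclusion is drawn from them. The members and gene lists were chosen with earlier results of these data known.

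Named were, by size of change, 25 called genes in each direction whose fractions did not overlap and whose higher mean was at least 5 FPKM, leaving out symbols of pseudogenes, predicted genes, small RNAs and antigen receptor segments. From each list, called members with large changes and abundant members without a call were named, beside a fixed set of Treg genes. Results of some named genes are not reported here, though counts, medians and ranges include them. Lists are given by counts and medians, without a set test. Alternatives were a pseudocount of 0.1, no filter, a mean FPKM of at least 5, quantile normalization, median centring, symbols with several entries left out, the replicate number as a block, HET libraries alone, and each library left out.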

Additional observations from a re-analysis of the deposited data

Results flagged for a closer look

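Mir1905 (mm10 chromosome 3, 88536301 to 88536382), a microRNA gene, was the 1 gene whose fraction change differed between the genotypes in the limma interaction test, by log2 -7.00 (SE 0.47, adjusted p = 9.0e-04). It had 60.9 and 152 FPKM in the HET CD62Lhi libraries and was listed at 0 in all 3 HET CD62Llo libraries. In KO it had 195, 120 and 128 FPKM in CD62Lhi and 230, 209 and 143 in CD62Llo. The deposited interval reached 0 in both HET CD62Lhi libraries, and after poly(A) selection the values may not reflect the mature microRNA.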

How the results depend on the processing

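Scaling moved the balance of directions. Quantile normalization gave 1431 higher and 1638 lower genes, and median centring 1863 lower, against 2149 and 1016 as deposited. Over the libraries left out in turn, the calls ran from 1920 to 3332, the higher genes from 1360 to 2301 and the lower from 560 to 1106, with the lowest counts without CD62Lhi replicate 1. The genes with a difference between genotypes numbered 1 to 5 in the same fits, and 4 without the filter on low values. With the replicate number as a block the fraction calls were 3553 (2456 higher, 1097 lower) and the genotype difference 0. Deviations of same-numbered libraries correlated at 0.135 and 0.0733 across genes over only 2 pairs. With 2 CD62Lhi libraries, deviations from their mean are mirror images, so these values cannot decide whether the numbers mark pairs. The second principal component of the 5 libraries (22.2% of the variance) placed replicate 1 at 28.7 in CD62Lhi and 20 in CD62Llo. Replicate 2 lay at -28.1 and -14.7, and CD62Llo replicate 3 at -5.92. The main fit did not use the numbers. The block ended 14 named calls and added 24, among them Cxcr4, Bcl2l11 and Fos (adjusted p = 0.0358, 0.00248 and 0.0365 with the block). The HET libraries alone gave 2478 calls. Eef1a1, an elongation factor with many pseudogenes, reversed from log2 -0.26 to 0.12 (adjusted p = 0.63) under quantile normalization, and the cause was not tested. Of 340 named calls 227 held under every alternative run. The 2 CD62Lhi libraries limit the precision most: leaving out replicate 1 ended 90 named calls and replicate 2 ended 72. Genes near 1 FPKM are given without their deposited bounds.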

Other observations

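Ribosomal protein genes, the structural subunits of the ribosome and the most abundant messages of these cells, were lower in the CD62Llo fraction. The families given here were picked by symbol after their values were seen, so their counts are descriptions. Of 82 tested ribosomal protein genes 70 were called lower and 1 higher in HET, with a median log2 change of -0.41, and the KO median was -0.24. The family made up 32.5% and 31.4% of the summed FPKM in CD62Lhi and 27.6%, 25.4% and 25.3% in CD62Llo, so the fractions did not overlap. Rps19, of the small subunit, fell from 3015 and 2867 FPKM in CD62Lhi to 2044, 1586 and 1711 in CD62Llo (log2 -0.73, SE 0.10, limma adjusted p = 5.7e-04). The count was 57 without CD62Lhi replicate 1 and 60 without CD62Lhi replicate 2. It was 73 with median centring and 8 with quantile normalization, which forces the highest values of all libraries to be equal, and the median was then -0.04. Many of these genes have processed pseudogenes that can share reads. The nuclear subunits of the respiratory chain did not follow. Of 36 NADH dehydrogenase genes 1 was higher and 1 lower, a called share of 5.6% against 27.7% over all genes. Of cytochrome c oxidase genes 0 of 11 were called, and of ATP synthase genes 0 of 17.

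Of 29 tested interferon-induced genes 9 were called lower and 0 higher, a called share of 31.0% against 27.7% over all genes, of which 8.89% were lower. Without CD62Lhi replicate 1, CD62Lhi replicate 2 or CD62Llo replicate 3 the calls were 8, 7 and 8. Usp18, a protease that restrains interferon signalling, fell from 38.2 and 39.2 FPKM in CD62Lhi to 19.9, 23.4 and 19.4 in CD62Llo (log2 -0.86, SE 0.11, limma adjusted p = 5.2e-04). Irf7, the factor that amplifies the interferon response, fell from 75.1 and 71.4 FPKM to 50.02, 55.8 and 52.04 (log2 -0.47, SE 0.07, limma adjusted p = 0.00138). Both fractions stood apart for these genes. Isg15, another member, overlapped, with 54.98 and 75.2 FPKM in CD62Lhi and 50.8, 74.2 and 72.4 in CD62Llo (limma adjusted p = 0.967).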
